A study of Mus musculus with 6 samples.

Results

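The enzymes that build triglyceride from glycerol 3-phosphate were examined in livers of KRAP-/- mice and their wild-type (WT) littermates. The 10 genes were Gpd1, Gpam, Agpat2, Agpat3, Lpin1, Lpin2, Lpin3, Dgat1, Dgat2 and Mogat1, and a probe set, the group of short probes that together read a transcript on an Affymetrix array, was taken where its annotation named exactly 1 of them. These 10 of the 18193 genes so named on the array had 23 of its 45037 probe sets, 4 each for Gpd1, Agpat3 and Lpin2, 2 each for Gpam, Lpin1, Dgat1 and Dgat2, and 1 each for Agpat2, Lpin3 and Mogat1. Liver RNA of 3 KRAP-/- mice and of 3 WT mice, 1 littermate for each, was hybridized to Affymetrix arrays of the mouse genome, 1 array per mouse. All mice were 32 weeks old and ate normal chow, and whether they had been fasted before the livers were taken is not given in the sources used here. In KRAP-/- mice exons 11 to 16 of KRAP are missing from the germline, with a selection marker in their place, and the line had been backcrossed 6 times to C57BL6/J. WT littermates carried no such deletion.

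Triglyceride assembly in the liver begins with glycerol 3-phosphate, to which acyltransferases add fatty acids, first at one position to give lysophosphatidate and then at the next to give phosphatidate. Lipins are the phosphatases that take the phosphate off phosphatidate to leave diacylglycerol, and Lpin1 also acts in the nucleus as a coactivator of fatty acid oxidation genes and is known to be induced by fasting. Diacylglycerol acyltransferases add the last fatty acid, and the triglyceride is then stored in droplets or exported in lipoproteins.

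The sequences before the annotated starts of Gpam, Lpin1 and Lpin2 are shown because Gpam and Lpin2 were the genes with a probe set that passed the test below and Lpin1 had the largest log2 fold change at a brightest probe set. They are the 250 bases before each start, from RefSeq on GRCm38.p6, 5′ to 3′ on the strand of the gene, for both starts of Gpam, the one of Lpin1 and the first of 3 of Lpin2. Capitals mark matches on either strand to CACGTG (an E-box), CCAAT or GGGCGG (a GC box).
Gpam, first start, chr19:55127239-55127488, minus strand: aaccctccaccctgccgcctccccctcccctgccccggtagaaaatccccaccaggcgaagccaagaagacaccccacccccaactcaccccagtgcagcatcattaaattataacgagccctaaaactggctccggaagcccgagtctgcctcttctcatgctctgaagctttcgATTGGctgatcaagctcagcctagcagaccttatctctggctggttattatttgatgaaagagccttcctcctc
Gpam, second start, chr19:55099478-55099727, minus strand: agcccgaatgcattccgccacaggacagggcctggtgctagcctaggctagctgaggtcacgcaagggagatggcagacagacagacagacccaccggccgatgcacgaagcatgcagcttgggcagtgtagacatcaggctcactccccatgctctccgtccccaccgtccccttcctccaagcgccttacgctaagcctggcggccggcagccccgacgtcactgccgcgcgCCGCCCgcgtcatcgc
Lpin1, chr12:16610967-16611216, minus strand: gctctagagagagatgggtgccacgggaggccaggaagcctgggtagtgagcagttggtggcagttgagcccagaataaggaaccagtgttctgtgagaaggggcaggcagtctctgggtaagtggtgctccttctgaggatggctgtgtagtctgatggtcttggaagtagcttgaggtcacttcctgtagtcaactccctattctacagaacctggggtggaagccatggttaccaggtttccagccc
Lpin2, first start, chr17:71183282-71183531, plus strand: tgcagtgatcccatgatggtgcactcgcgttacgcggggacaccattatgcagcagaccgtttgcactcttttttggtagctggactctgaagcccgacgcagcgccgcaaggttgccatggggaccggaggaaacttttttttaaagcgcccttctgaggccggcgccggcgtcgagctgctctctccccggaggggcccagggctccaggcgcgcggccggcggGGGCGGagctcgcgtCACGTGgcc
RefSeq windows running from 250 bases before to 50 bases after the start were at hand for 7 of the 10 genes, 11 windows in all, and Gpd1, Dgat1 and Dgat2 had no entry. CACGTG stood in 2 of the 11 windows, the first of Lpin2 at −9 from the start and the first of Lpin3 at 22, against 7.15% of all 32851 mouse windows. CCAAT stood in 3 of 11 (37.4% of all windows) and GGGCGG in 5 of 11 (35.7%). The letters TCACNCCAC, a form of the sterol response element, stood in none of the 11 and in 1.24% of all windows. No 2 of these motifs overlapped each other in the printed windows. The arrays do not tell which start a transcript came from, so these matches are a description of the windows alone.

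Signals are given as multiples of the median signal of the array, the scaling that the study's methods describe. Because each probe set has its own brightness, values were compared between mice within a probe set and not between probe sets. Array medians before scaling were 20.2 to 23.4 for KRAP-/- and 19.1 to 22.6 for WT, and the log2 signals of 2 arrays correlated at 0.952 to 0.958 within a genotype and at 0.944 to 0.952 between genotypes. The hepatocyte genes Alb, Apoa1, Ttr and Cyp2e1 averaged 631 to 851 over the 6 arrays, whereas 9 probe sets of the Y-chromosome genes Eif2s3y, Kdm5d and Uty read at most 0.526 on any array. The only probe set of KRAP, now listed as Itprid2, read 21.6, 21.3 and 20 in KRAP-/- mice 1 to 3 and 23.9, 24.5 and 22.3 in WT mice 1 to 3 (log2 fold change −0.17, adjusted p = 0.44 from limma). Its place relative to the deleted exons is not given in the sources used here, so it checks nothing about the labels.

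Of the triglyceride assembly enzymes, a dim probe set of Lpin2 rose in KRAP-/- liver and the dimmer of the Gpam probe sets fell, and no brightest probe set of any of the 10 genes passed the test. The test was limma on log2 signals with the littermate pair as a block, p-values were adjusted over all 28531 probe sets with a mean of at least 0.5, and the threshold was 0.05. It covered 22 of the 23 probe sets of these enzymes. With 1 higher and 1 lower, 9.09% of the 22 passed, beside 1.41% of all probe sets tested (0.431% higher and 0.978% lower). The split over all probe sets moved with the scaling, from 123 higher and 279 lower to 170 and 205 with values as deposited and 151 and 208 after quantile normalization. An unadjusted p under 0.05 from limma was found for 6 higher and 5 lower probe sets, beside 1591 higher and 2653 lower of all 28531. With values as deposited these were 7 and 3, beside 1934 and 1678, and after quantile normalization 7 and 5, beside 2142 and 1975. The median log2 fold change over the 22 was 0.12, beside −0.04 over all probe sets tested, and 14 were positive and 8 negative. All 3 values of one genotype lay above those of the other for 5 of the 22, 3 with KRAP-/- higher and 2 with KRAP-/- lower, and this was so for 20.1% of all probe sets tested (7.8% higher and 12.3% lower). By a filter built on the study's methods, a change of at least 1.5-fold in the same direction in all 3 pairs, applied here to every probe set with no limit on dim ones, the dim probe set of Lpin2 was the only one of the 23 retained, beside 5.18% of all 45037 (2.3% higher and 2.88% lower). Neither call held without the intensity trend of limma (adjusted p = 0.42 for both) or without the limit on dim probe sets (0.38 for Gpam and 0.40 for Lpin2), and under either setting no probe set on the array passed. In whole liver, fewer cells of a type and less RNA per cell cannot be told apart.

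**Figure D1:**
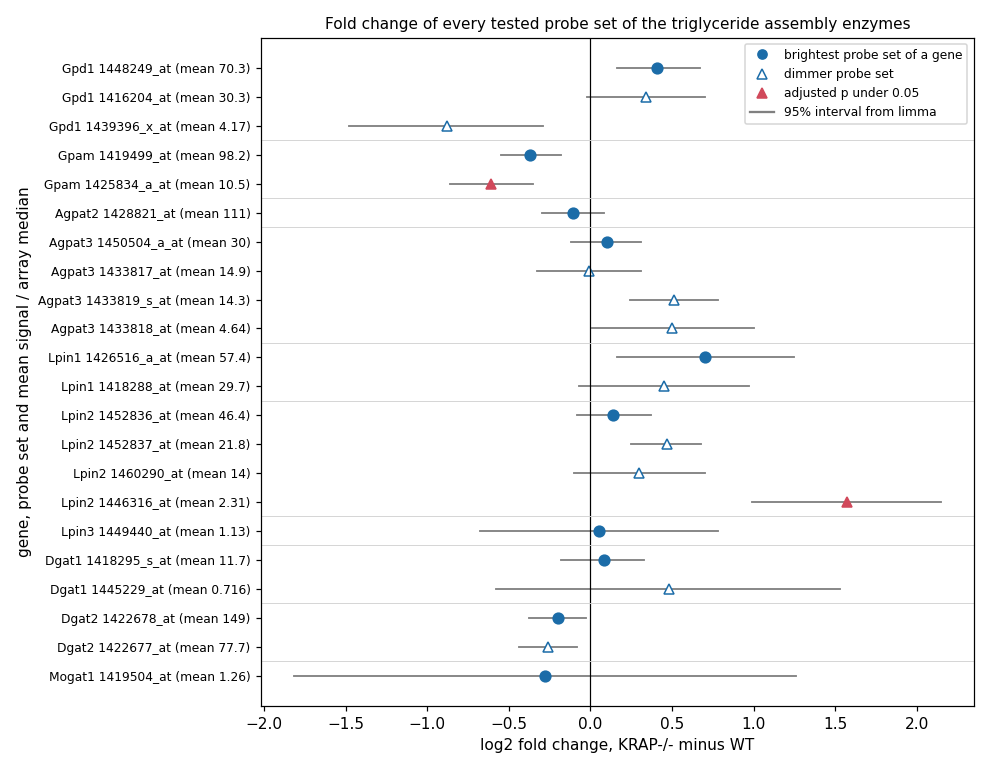
Log2 fold change of KRAP-/- minus WT (horizontal axis) for the 22 tested probe sets, grouped by gene with the brightest at the top of each group. Circles are brightest and triangles dimmer probe sets, red marks an adjusted p under 0.05, and lines are 95% intervals from limma. The red points are a Gpam probe set at −0.61 and a Lpin2 probe set at 1.57, and the widest interval is that of Mogat1, from −1.82 to 1.26.

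Gpd1 is the cytosolic glycerol 3-phosphate dehydrogenase, which makes the glycerol 3-phosphate backbone from a glycolytic intermediate. Its brightest probe set, 1448249_at, read 72.4, 75.6 and 89.5 in KRAP-/- mice 1 to 3 and 46.6, 52.2 and 85.3 in their WT littermates. KRAP-/- was higher in every pair, by ratios of 1.55, 1.45 and 1.05, but WT mouse 3 lay within the range of the KRAP-/- mice. The log2 fold change was 0.41 (SE 0.11, 95% interval 0.16 to 0.67, adjusted p = 0.13). Without pair 3, which had the smallest ratio, it was 0.58 (adjusted p = 0.010). It was 0.30 (adjusted p = 0.32) without pair 1 and 0.35 (adjusted p = 0.28) without pair 2, so the pass came only from leaving out the least changed pair. At 1416204_at the KRAP-/- mice read 31.4, 32.1 and 36.0 and the WT mice 16.8, 28.3 and 37.4, here with WT mouse 3 above every KRAP-/- mouse (log2 fold change 0.34, adjusted p = 0.37). The third probe set, 1439396_x_at, had a fold change of the opposite sign. It read 2.03, 4.80 and 2.35 in KRAP-/- and 4.95, 4.69 and 6.18 in WT, ratios of 0.410, 1.02 and 0.381, so that pairs 1 and 3 were lower and pair 2 was not. Its log2 fold change was −0.88 (SE 0.26, adjusted p = 0.16) over the 3 pairs. It was −1.34 (adjusted p = 0.0012) without pair 2, the pair that disagreed. Without pair 1 it was −0.68 (adjusted p = 0.33) and without pair 3 −0.63 (adjusted p = 0.30). The suffix _x marks probes that may bind unrelated transcripts. The fourth, 1456732_at, read 0.0102 to 0.321 on the 6 arrays and was too dim to be tested.

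Gpam, the mitochondrial glycerol 3-phosphate acyltransferase that commits acyl-CoA to glycerolipid synthesis, was lower in KRAP-/- liver in every pair at both of its probe sets. The dimmer, 1425834_a_at, read 7.60, 8.07 and 9.27 in KRAP-/- mice 1 to 3 and 11.4, 13.3 and 13.1 in WT mice 1 to 3. The genotypes did not overlap, and the pair ratios were 0.665, 0.605 and 0.706. The mean was 8.31 ± 0.860 in KRAP-/- and 12.6 ± 1.05 in WT (SD, n = 3 each), and the log2 fold change was −0.61 (SE 0.11, 95% interval −0.86 to −0.35, adjusted p = 0.039 from limma). The brightest, 1419499_at, read 90.7, 84.5 and 82.0 in KRAP-/- and 122, 99.6 and 111 in WT. Here too the lowest WT mouse lay above the highest KRAP-/- mouse, and the means were 85.7 ± 4.45 and 111 ± 11 (SD, n = 3 each). Its log2 fold change was −0.37 (SE 0.08, 95% interval −0.55 to −0.18), which missed the threshold at an adjusted p of 0.077. The pass of the dimmer probe set was close to the threshold as well: the log2 fold change was −0.61 without pair 1, −0.55 without pair 2 and −0.66 without pair 3, with adjusted p-values of 0.079, 0.11 and 0.031 from limma. It also missed with values as deposited (−0.56, adjusted p = 0.087) and after quantile normalization (−0.54, adjusted p = 0.072).

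The next acyl group is added by the acylglycerolphosphate acyltransferases, of which Agpat2 is the form prominent in liver and fat and Agpat3 a broadly expressed form. Agpat2 at 1428821_at read 105, 103 and 111 in KRAP-/- and 125, 103 and 117 in WT. The difference was largest in pair 1, with ratios of 0.840, 0.997 and 0.946 (log2 fold change −0.11, 95% interval −0.30 to 0.08, adjusted p = 0.57). Agpat3 had 4 tested probe sets that did not move alike. At the brightest, 1450504_a_at, KRAP-/- mice read 30.0, 31.3 and 31.4 and WT mice 27.2, 27.2 and 32.6 (log2 fold change 0.10, adjusted p = 0.68). At 1433819_s_at they read 15.2, 17.3 and 17.8 against 11.8, 10.1 and 13.5, with no overlap and ratios of 1.29, 1.72 and 1.31. The log2 fold change there was 0.51 (SE 0.12, 95% interval 0.24 to 0.78, adjusted p = 0.084), and the suffix _s marks probes shared by more than one transcript. The remaining ones, 1433817_at and 1433818_at, gave log2 fold changes of −0.01 (adjusted p = 0.98) and 0.50 (adjusted p = 0.33) with overlapping genotypes. For 1433817_at the pairs disagreed, KRAP-/- reading 15.8, 14.3 and 14.0 and WT 13.1, 19.3 and 12.9, and its sign turned when the scaling was left out (0.04).

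All 7 probe sets of the lipins had log2 fold changes above 0, from 0.05 to 1.57, and 1 of them passed. Probe sets of a gene read the same mice on the same 6 arrays, so these are not 7 separate results. Without pair 1, Lpin3 was at −0.11 and Lpin2 1460290_at at 0.00. The median over all probe sets tested was −0.04. Among probe sets with a mean of at least 10, Lpin1 varied most between the KRAP-/- mice relative to its mean. At 1426516_a_at KRAP-/- mice 1 to 3 read 89.9, 38.7 and 89.4, and WT mice 1 to 3 read 49.1, 44.8 and 32.8. KRAP-/- mice 1 and 3 thus lay above every WT mouse, and KRAP-/- mouse 2 lay inside the WT range and below its own littermate. The pair ratios were 1.83, 0.863 and 2.73, the means 72.6 ± 29.4 and 42.2 ± 8.48 (SD, n = 3 each), and the log2 fold change 0.70 (SE 0.24, 95% interval 0.16 to 1.25, adjusted p = 0.22). The second probe set, 1418288_at, gave the same order of mice within KRAP-/-, 44.7, 20.7 and 38.9, beside 27.8, 27.7 and 18.4 in WT (log2 fold change 0.45, adjusted p = 0.41). Over the 6 arrays the Lpin1 probe sets correlated at r = 0.973, a description in which both values of a mouse come from the same array. Without pair 2, which was found to stand apart after the values were seen, the log2 fold changes were 1.16 (adjusted p = 1.5e-05) and 0.89 (adjusted p = 5.6e-04). Pair 2 was the only one in which KRAP-/- was lower, so these passes followed from its removal and are no test of a rise. Without pair 1 the values were 0.62 (adjusted p = 0.29) and 0.33 (adjusted p = 0.64). Without pair 3 they were 0.33 (adjusted p = 0.45) and 0.13 (adjusted p = 0.80).

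**Figure D2:**
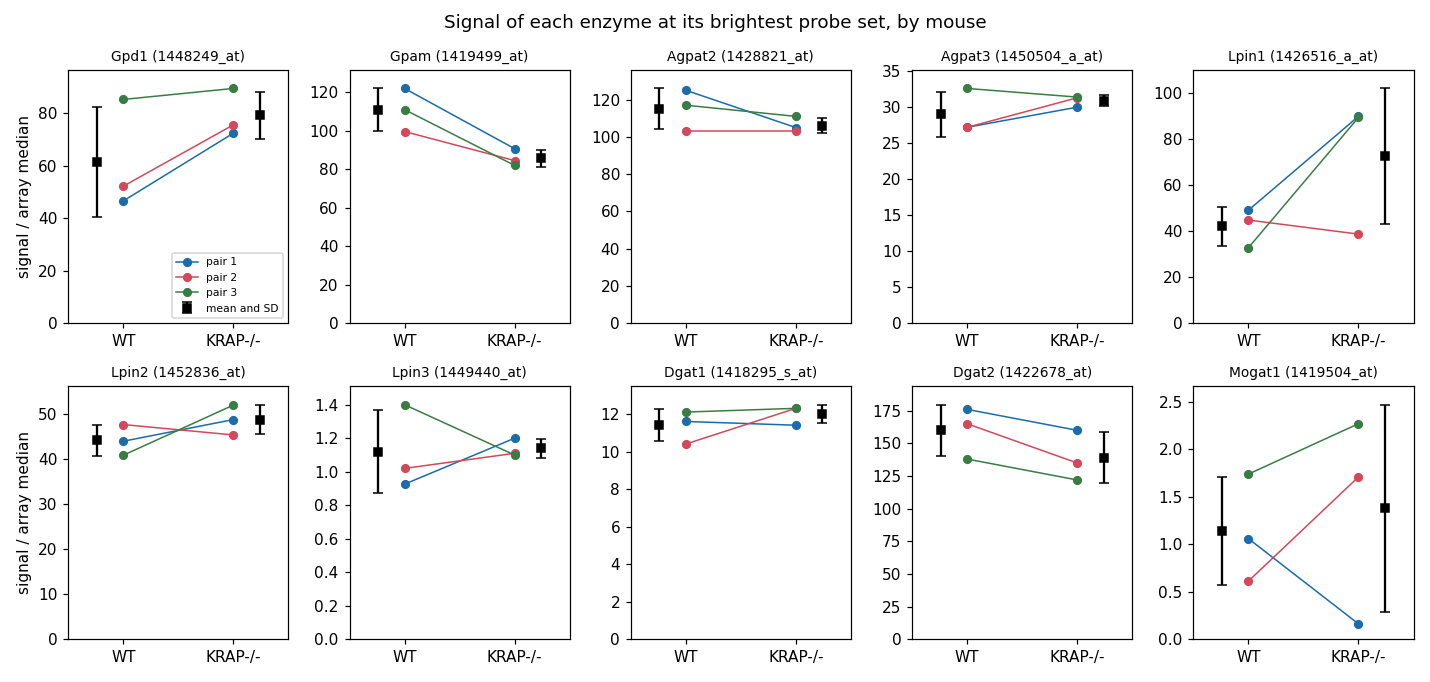
Signal divided by the array median (vertical axes from 0) for the brightest probe set of each of the 10 genes, with WT on the left and KRAP-/- on the right of each panel. Coloured points joined by a line are the mice of one littermate pair and black squares with bars are means and SD of 3 mice. The means of Gpam are 111 and 85.7 with all its lines running down, and in Lpin1 the line of pair 2 runs down while those of pairs 1 and 3 run up.

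Lpin2, the lipin most prominent in liver, differed in size of change among its 4 probe sets. The one that rose, 1446316_at, was the dimmest and read 2.67, 4.54 and 3.02 in KRAP-/- mice and 0.616, 1.57 and 1.43 in WT mice. The genotypes did not overlap, and the ratios were 4.33, 2.89 and 2.11. The means were 3.41 ± 0.996 and 1.21 ± 0.517 (SD, n = 3 each), and the log2 fold change was 1.57 (SE 0.26, 95% interval 0.99 to 2.15, adjusted p = 0.022 from limma). It passed without each pair in turn (1.30 to 1.82), but not without the block on littermate pairs (adjusted p = 0.064). At 1452837_at the KRAP-/- mice read 23.4, 29.3 and 23.3 and the WT mice 18.1, 20.1 and 16.7, also without overlap and with ratios of 1.29, 1.46 and 1.40. This gave a log2 fold change of 0.47 (SE 0.10, 95% interval 0.25 to 0.68, adjusted p = 0.056), and 0.53 (adjusted p = 0.039) after quantile normalization. The brightest probe set, 1452836_at, read 48.7, 45.3 and 51.9 against 43.9, 47.6 and 40.8, with pair 2 lower and the others higher (log2 fold change 0.14, adjusted p = 0.54). For 1460290_at, KRAP-/- mice were nearly alike at 15.1, 15.2 and 15.0, while WT mice spread over 8.05, 16.2 and 14.2 (log2 fold change 0.30, adjusted p = 0.47).

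Lpin3, the lipin best known from intestine, was dim at its only probe set, 1449440_at, with 1.2, 1.11 and 1.1 in KRAP-/- and 0.926, 1.02 and 1.40 in WT. The genotypes overlapped throughout, and the log2 fold change of 0.05 had an interval from −0.68 to 0.78 (adjusted p = 0.96), wide enough to hold a change of the size seen at Lpin2 1452837_at in either direction.

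The acyltransferases of the last step, Dgat1 and Dgat2, are unrelated proteins of the same reaction. Dgat2 was lower in KRAP-/- in all pairs at both probe sets without passing the test. At 1422678_at KRAP-/- mice read 160, 135 and 122 and WT mice 176, 165 and 138, ratios of 0.910, 0.817 and 0.882 (log2 fold change −0.20, adjusted p = 0.27). At 1422677_at they read 78.4, 70.1 and 63.7 against 94.3, 85.8 and 73.7, ratios of 0.831, 0.817 and 0.864 (log2 fold change −0.26, SE 0.08, adjusted p = 0.18). At both, pair 1 was the highest and pair 3 the lowest in either genotype, and the genotypes overlapped. Dgat1 at 1418295_s_at read 11.4, 12.3 and 12.3 in KRAP-/- and 11.6, 10.4 and 12.1 in WT, a log2 fold change of 0.08 (SE 0.11, adjusted p = 0.80). Its dim probe set 1445229_at read 0.669, 0.916 and 0.870 against 0.367, 0.727 and 0.745. KRAP-/- was higher there in every pair, with a log2 fold change of 0.48 whose SE was 0.47 (adjusted p = 0.68). Mogat1, which acylates monoacylglycerol and is low in normal liver, read 0.163, 1.71 and 2.27 in KRAP-/- and 1.06, 0.614 and 1.74 in WT at 1419504_at. The pairs pointed in opposite directions, with ratios of 0.153, 2.78 and 1.30, and the log2 fold change of −0.28 (SE 0.68, adjusted p = 0.89) became 0.93 without pair 1.

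**Figure D3:**
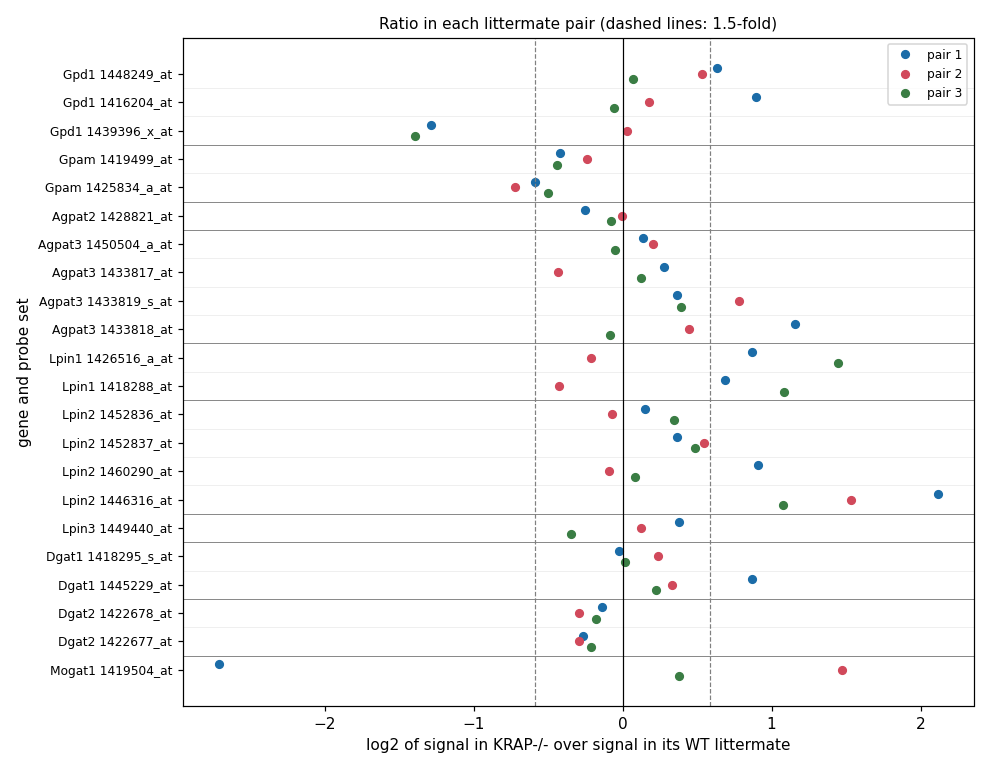
Log2 ratio of each KRAP-/- mouse to its WT littermate (horizontal axis) for the 22 tested probe sets, coloured by pair, with dashed lines at a 1.5-fold change either way. All points of Lpin2 1446316_at lie beyond the right line, those of Gpam and Dgat2 lie left of 0, and pair 2 of Lpin1 lies left of 0 while pairs 1 and 3 lie to its right.

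Of the 22 probe sets, 5 were higher and 5 lower in KRAP-/- in all 3 pairs, together 10 of 22, beside 37.7% of all probe sets tested (15.3% higher and 22.4% lower). The lower ones were Gpam at both probe sets, Dgat2 at both and Agpat2. The higher ones were Gpd1 1448249_at, Agpat3 1433819_s_at, Lpin2 1452837_at and 1446316_at, and Dgat1 1445229_at. In the fit, which sets part of each variance by brightness through its intensity trend, the SE of the log2 fold change was 0.08 to 0.24 for the 16 probe sets with a mean of at least 10 and 0.22 to 0.68 for the 6 dimmer ones.

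Next, the dimmer probe sets were compared with the brightest one of the same gene. Of the 10 genes, 3 had 1 probe set and 7 had several, which gave 12 comparisons. The log2 difference between the probe sets on each array was fitted in the same way over all 10584 such pairs on the array, of which 21 (0.198%) passed. None of the 12 passed in limma, and 5 had an unadjusted p under 0.05, a limit at which the share over all such pairs was not counted. The largest were Gpd1, where 1439396_x_at lay below 1448249_at by a log2 difference in fold change of −1.29 (SE 0.26, 95% interval −1.87 to −0.72, adjusted p = 0.090), and Lpin2, where 1446316_at lay above 1452836_at by 1.43 (SE 0.29, 95% interval 0.78 to 2.08, adjusted p = 0.096). Both crossed the threshold when some pairs were left out. For Gpd1 the values were −0.98 (adjusted p = 0.022) without pair 1 and −1.69 (adjusted p = 0.048) without pair 2, but −1.21 (adjusted p = 0.064) without pair 3. For Lpin2 they were 1.16 (adjusted p = 0.035) without pair 1 and 1.78 (adjusted p = 0.012) without pair 3, but 1.34 (adjusted p = 0.33) without pair 2. The rise of Lpin2 at its dim probe set was therefore not shown to differ from the value of its brightest one over the 3 pairs.

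Elsewhere the probe sets of a gene lay closer together. For Dgat2 the difference was −0.05 with an interval from −0.22 to 0.12 (adjusted p = 0.83), and for Gpam −0.24 with an interval from −0.55 to 0.07 (adjusted p = 0.55), so the lower values of Gpam at its dimmer probe set were not separated from those at its brightest. The Lpin1 probe sets differed by −0.25 (adjusted p = 0.37), Agpat3 1433819_s_at from the brightest by 0.42 (adjusted p = 0.25) and Lpin2 1452837_at by 0.32 (adjusted p = 0.36). As a description over the 6 arrays, the log2 signals of paired probe sets correlated at r = 0.973 for Dgat2, 0.887 for the brighter Gpd1 probe sets and 0.709 for Gpam. Against the brightest Lpin2 probe set the others gave 0.540 for 1452837_at, 0.382 for 1460290_at and 0.483 for 1446316_at. For Agpat3 the values were −0.51 for 1433817_at, 0.769 for 1433819_s_at and 0.676 for 1433818_at. Dgat1 1445229_at gave 0.278 and Gpd1 1439396_x_at −0.319, so low values were found at dim and at brighter probe sets.

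**Figure D4:**
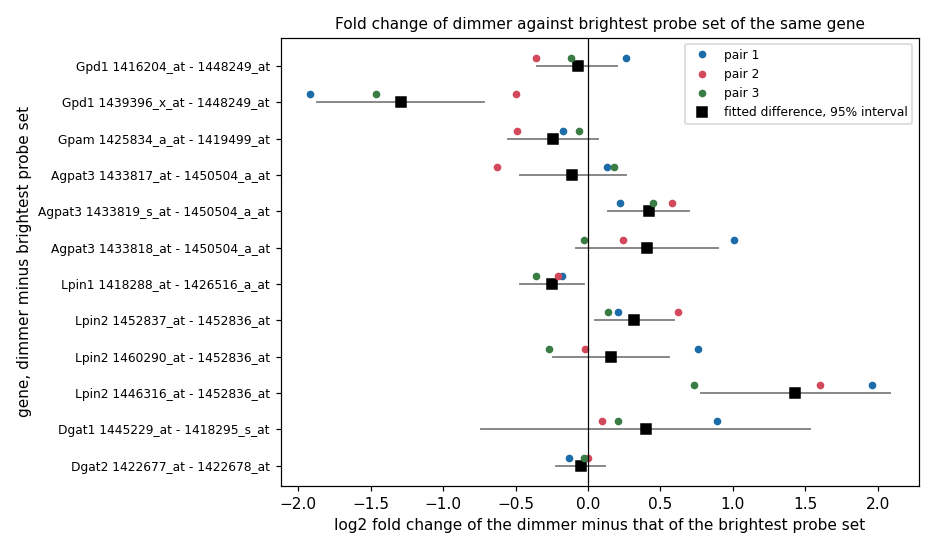
Log2 fold change of a dimmer probe set minus that of the brightest probe set of the same gene (horizontal axis) for the 12 comparisons, with the value in each littermate pair as a coloured point and the fitted value with its 95% interval in black. Gpd1 1439396_x_at at −1.29 and Lpin2 1446316_at at 1.43 stand farthest from 0, and Dgat2 at −0.05 is the narrowest.

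Other genes of the same pathway gave no call at their brightest probe sets. A list of 18 held further acyltransferases, phosphatidate phosphatases, CDP-diacylglycerol synthases and glycerol 3-phosphate dehydrogenases. Of these, 16 had a probe set naming them alone (Gk and Acsl1 did not), 14 were bright enough to be tested, and 0 were higher and 0 lower by limma at their brightest probe set, with a median log2 fold change of 0.02. The largest changes were those of Gpat2 and Gpd2. Gpat2, a glycerol 3-phosphate acyltransferase best known from testis, read 1.42, 1.69 and 1.19 in KRAP-/- and 2.87, 2.06 and 2.62 in WT, with no overlap (log2 fold change −0.81, adjusted p = 0.18). Gpd2, the mitochondrial partner of Gpd1 in the glycerol phosphate shuttle, read 44.7, 49.1 and 44.1 against 23.7, 24.7 and 48.6 (log2 fold change 0.59, adjusted p = 0.20). Without pair 3, the only one in which KRAP-/- was lower, the log2 fold change was 0.95 (adjusted p = 7.0e-04). It was 0.43 (adjusted p = 0.37) without pair 1 and 0.39 (adjusted p = 0.36) without pair 2. WT mouse 3 was thus in the range of the KRAP-/- mice for Gpd2, as it was for Gpd1 1448249_at. A dimmer Gpd2 probe set, 1428323_at, chosen after its values were seen, passed with 19.5, 18.1 and 20.2 against 11.3, 8.13 and 16 (log2 fold change 0.76, adjusted p = 0.048), and lost the pass without pair 2 (0.56, adjusted p = 0.070). It also missed without the littermate block (adjusted p = 0.11), with a floor of 0.01 (0.051), without the limit on dim probe sets (0.42) and without the trend (0.43).

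Because Lpin1 is known to follow fasting, glucocorticoid and the clock, 14 genes of these programmes were read beside it. Of the 13 with a probe set naming them alone, 1 rose and 0 fell, with a median log2 fold change of 0.30. Angptl4, a secreted inhibitor of lipoprotein lipase that fasting induces, read 55.9, 54.8 and 53.5 in KRAP-/- and 33.5, 29.0 and 37.6 in WT (log2 fold change 0.72, adjusted p = 0.011). KRAP-/- mouse 2, low for Lpin1, was not low for Angptl4. Nor was it low for Ppara, the fatty acid sensor that drives many fasting genes, which was chosen after its values were seen and read 96.1, 92.0 and 83.1 against 38.1, 58.7 and 75.0 (log2 fold change 0.71, adjusted p = 0.10). Fkbp5, which glucocorticoid induces, was also chosen after its values were seen. Like Lpin1, it was higher in KRAP-/- in pairs 1 and 3 and lower in pair 2 at both tested probe sets. Its brightest probe set read 23.2, 17.1 and 17.4 against 15.2, 19.4 and 14.4 (log2 fold change 0.24, adjusted p = 0.49). The dimmer, 1448231_at, read 7.18, 3.81 and 4.54 against 2.26, 4.19 and 4.07 (0.56, adjusted p = 0.43). KRAP-/- mouse 3, high for Lpin1, lay near mouse 2 for Fkbp5. The brightest probe sets of Ppargc1a, Cpt1a and Pck1 also had log2 fold changes above 0. These were 0.68, 0.30 and 0.24, with adjusted p-values of 0.060, 0.31 and 0.27 from limma. Pdk4, a kinase that spares glucose in fasting and was likewise chosen after its values were seen, pointed the other way. It read 2.89, 5.53 and 4.07 in KRAP-/- and 3.86, 5.82 and 15.3 in WT, lower in every pair and highest in WT mouse 3 (log2 fold change −0.80, adjusted p = 0.26). Dbp, a clock output gene also chosen after its values were seen, was low in both mice of pair 3, with 18.7, 16.2 and 6.81 in KRAP-/- and 26.9, 23.3 and 7.02 in WT. Its log2 fold change was −0.37. Of the other clock genes, Nr1d1 was at −0.11, Arntl at −0.36, Per1 at 0.41 and Per2 at 0.53. KRAP-/- mouse 3, low for Dbp, was as high for Lpin1 as KRAP-/- mouse 1. The part of feeding state or time of day in the Lpin1 values was not tested.

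The genes whose log2 signals most resembled Lpin1 over the 6 arrays, among 11044 genes with a mean of at least 1, were Zmym2 (r = 0.990), Usp16 (0.978), Blzf1 (0.975), Rad18 (0.975) and Stk39 (0.968). All were low in KRAP-/- mouse 2 relative to KRAP-/- mice 1 and 3, which follows from their choice by resemblance to Lpin1. The drop could be much smaller than that of Lpin1, as for Zmym2 with 14.8, 12.6 and 14.8 in KRAP-/- mice 1 to 3. None passed the test between genotypes. With 6 arrays and so many genes these values are a description.

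Markers of other cells were set beside the enzymes that were lower in KRAP-/-. Of 7 adipocyte genes 5 had a probe set naming them alone. Their summed signal was 9.13 to 11.7 in KRAP-/- and 8.74 to 27.6 in WT, and Lep and Cidea were too dim to be tested. Adipoq read 0.144, 0.0318 and 0.253 in KRAP-/- and 2.20, 0.694 and 0.444 in WT, without overlap (log2 fold change −2.51, adjusted p = 0.25 from limma). Fabp4 at its brightest probe set read 8.16, 8.73 and 10.2 against 22.8, 10.7 and 7.81 (log2 fold change −0.46, adjusted p = 0.48). WT mouse 1 was the highest for both, and also for the brightest probe sets of Gpam, Agpat2 and Dgat2. At the dimmer Gpam probe set it was the lowest WT mouse, with 11.4 beside 13.3 and 13.1. Retn was highest in KRAP-/- mouse 3, at 0.963 beside 0.864 in WT mouse 1 (log2 fold change −1.17, adjusted p = 0.67). A dimmer Fabp4 probe set, 1451263_a_at, was also highest there, at 9.70 beside 9.28 in WT mouse 1 (log2 fold change 0.27). Without pair 1 the log2 fold changes of Gpam were −0.34 at the brightest and −0.61 at the dimmer probe set, and those of Dgat2 −0.24 and −0.25, beside −0.37, −0.61, −0.20 and −0.26 over the 3 pairs. That of Agpat2 was −0.04, beside −0.11. The part of fat tissue in these values was not tested. The 4 Kupffer cell genes summed to 111 to 113 in KRAP-/- and 132 to 151 in WT, and Clec4f, a lectin of these liver macrophages, fell, with 22.5, 24 and 22.9 against 31.6, 34.8 and 34.1 (log2 fold change −0.54, adjusted p = 0.025). The other 3 did not pass. None of the stellate, cholangiocyte, endothelial, pancreas and muscle genes passed. Among them Cela1, a pancreatic elastase, read 11.8, 9.73 and 13.4 in KRAP-/- and 22.6, 22 and 15.7 in WT (log2 fold change −0.78, adjusted p = 0.063), and Lrat, which stores retinol in stellate cells, read 4.67, 6.56 and 6.09 against 9.14, 8.72 and 9.14 (log2 fold change −0.66, adjusted p = 0.070), both without overlap. Reln, the brightest stellate gene, went the other way, with 51.7, 47.5 and 49.3 against 51.1, 42.4 and 39.9 (log2 fold change 0.16, adjusted p = 0.45). The stellate genes summed to 56 to 58.3 in KRAP-/- and 51.8 to 62.8 in WT. Acta1, the actin of skeletal muscle, read 0.558, 0.706 and 0.805 against 4.42, 2.92 and 0.294. The marker genes named were chosen after their values were seen. The part of these cells in the lower values of Gpam and Dgat2 was not tested.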

How the data were processed

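Liver RNA of 3 KRAP-/- mice and 3 WT littermates was measured on 6 arrays. The authors made their values with GCOS and deposited 1 linear signal intensity per probe set and array, without scaling between arrays. Signals were divided by the array median, floored at 0.1 and taken as log2. Of 45101 probe sets, 64 controls were left out, and 28531 whose mean reached 0.5 entered limma 3.58.1 under R 4.3.3, blocked on littermate pair and moderated along an intensity trend, and p-values were adjusted after Benjamini and Hochberg with 0.05 as the threshold. Gene symbols came from GEO's platform annotation (34945 probe sets with 1 symbol, 932 with several, 9160 with none). Dimmer and brightest probe sets were ranked by mean signal. The pairing comes from the series' design text and the study's methods, both of which describe littermates. Deviations from the genotype means correlated at 0.0429, 0.00954 and −0.0124 within pairs. The fit was tested on simulated data with variances taken from the same fit and its intensity trend. That simulation therefore cannot show whether the trend suits these data. Figures used matplotlib 3.10.9.

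The enzymes and gene lists were chosen with earlier results of these data known. All 10 enzymes were named with every probe set, and of the other pathway genes and of the fasting and clock genes those past the threshold or else the 2 with the largest change, with the 5 genes most like Lpin1. Any other gene was named after its values were seen. Alternatives were the deposited values, quantile normalization, other floors and limits on dim probe sets, no block, no trend, no _x or _s probe sets, a 2-fold filter and leaving out each pair. The number of arrays limits the precision.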

Additional observations from a re-analysis of the deposited data

How the results depend on the processing

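The 2 calls among the enzymes rested on choices that moved them across the threshold. Of the probe sets higher in KRAP-/-, 1 passed, against 2 after quantile normalization and 0 without the limit on dim probe sets, without the littermate block and without the intensity trend, and 1 to 3 when 1 pair was left out. Of those lower, 1 passed, against 0 with values as deposited, after quantile normalization, without the limit and without the trend, and 0 to 1 when 1 pair was left out. Without the block, the Gpam probe set passed at an adjusted p of 0.043 and the Lpin2 probe set missed at 0.064. Over all probe sets, 123 higher and 279 lower became 0 and 0 without the limit (1614 and 2937 at an unadjusted p under 0.05) and 0 and 0 without the trend (1295 and 1794), and 123 to 295 higher and 288 to 469 lower when 1 pair was left out. Why the calls depend on the trend was not tested.

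Dimmer against brightest probe sets gave 21 calls over all genes, against 37 with a pseudocount, 46 at a mean of at least 1, 0 without the limit, 0 without the trend and 7 to 141 when 1 pair was left out, and for the enzymes 0, against 1 to 2 when 1 pair was left out. Fasting and clock genes gave 1 higher, against 2 without the block, 0 without the limit, without the trend or without _x and _s probe sets, and 1 to 3 when 1 pair was left out, and 0 lower, against 0 to 1. Other pathway genes gave 0 higher, against 0 to 1. The 1.5-fold filter retained 1035 higher and 1299 lower probe sets, against 376 and 535 at 2-fold, 319 and 393 at a mean of at least 0.5, 176 and 239 at a mean of at least 1, and 2810 to 2880 and 3178 to 3512 with 1 pair left out. Of the enzymes it retained 1 higher, against 1 to 3, and 0 lower, against 0 to 1, with 1 pair left out.

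The alternatives gave 447 values, of single probe sets and of differences from the brightest probe set of a gene. Of these, 411 kept direction and side of the threshold, 16 lost the pass, 10 gained it and 10 changed sign. Most of the 447 belonged to results that had not passed under the main settings and so could not lose a pass. The 16 losses all fell on the probe sets of Gpam, Lpin2, Gpd2 and Angptl4 that had passed. Agpat3 1433817_at (−0.01) became 0.04 with values as deposited and 0.05 after quantile normalization. With 1 pair left out it ran from −0.16 to 0.20, Mogat1 from −1.16 to 0.93, Lpin3 from −0.11 to 0.25, Lpin2 1460290_at from 0.00 to 0.50 and Dgat1 1418295_s_at from 0.00 to 0.13. The differences from the brightest probe set ran from −0.14 to 0.37 for Lpin2 1460290_at, from −0.25 to 0.15 for Agpat3 1433817_at and from −0.24 to 0.07 for Gpd1 1416204_at. Each of these had an interval that held 0 over the 3 pairs. With 3 mice a genotype and SEs up to 0.68 for dim probe sets, small changes of Lpin3, Mogat1 and Dgat1 1445229_at were not detectable.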
